A study of Mus musculus with 6 samples.

Results

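Rab GTPases are small membrane-bound switches, and the 52 genes described here are the mouse Rab genes on the array apart from the Rab4, Rab5 and Rab11 genes of early endosome recycling. Members were chosen by symbol alone: every gene named Rab, then a number and at most 1 letter, with Rab4a, Rab4b, Rab5a, Rab5b, Rab5c, Rab11a and Rab11b left out, among 18193 genes that a probe set names singly. They were read by 120 probe sets. Their transcripts were measured in the left ventricle of male mice on a C57BL/6 background, aged 12 to 16 weeks, in 3 wild type samples and 3 akt2-/- samples. The knockout carries a targeted disruption of the akt2 gene, for which the labels name no Cre or tissue limit, and the line had been backcrossed more than 7 times. Each sample was hybridised to 1 array. Whether each sample is a different mouse is not in the labels, and p-values here therefore cover the spread among these 6 samples and nothing more. In whole ventricle, fewer cells of a type and less RNA per cell cannot be told apart.

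A Rab protein cycles between a GDP-bound form, held in the cytosol by GDI, and a GTP-bound form that sits on 1 kind of membrane and recruits effectors such as tethers and motors. Exchange factors load GTP, and GTPase-activating proteins of the TBC family switch the Rab off. Akt phosphorylates 2 of these, Tbc1d4 (AS160) and Tbc1d1, and thereby releases Rab8a, Rab10, Rab13 and Rab14 from inhibition, a step by which insulin moves the glucose transporter GLUT4 to the surface of muscle and fat cells. Other members serve transport between endoplasmic reticulum and Golgi, late endosomes and lysosomes, secretory granules, the plasma membrane and the cilium.

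The windows before the gene starts are shown first because their CG content differed between members bright enough to be tested in this tissue and members that were not. RefSeq promoter windows of assembly GRCm38.p6, with 250 bases before and 50 after a start, were matched to 42 of the 52 genes by symbol, 54 windows in all. The median number of CG dinucleotides was 25 over 39 windows of 31 genes bright enough to be tested, and 9 over 15 windows of 11 genes that were too dim. It was 7 over all 32851 windows of the table. This is a description with no test, and several genes give more than 1 window. The split by brightness was not made for all genes, so it is not shown to be particular to this family. Rab8b, a post-Golgi Rab, and Rab25, an epithelial Rab that was too dim to test, lie nearest to their class's median among the members considered as examples. Those members each had 1 window, lay outside 1 chromosome that was left out, and had no annotated gene over the 250 bases. The medians count CG over 300 bases, the printed stretches over 250. Rab43 is the member with the lowest p below, and Rab9 the one gene whose brightest probe set separated the groups. The 250 bases before the outermost start of each follow, 5′ to 3′ on the minus strand, with each CG in capitals: Rab8b at chr9:66919706-66919955 with 20, Rab25 at chr3:88548280-88548529 with 8, Rab43 at chr6:87812165-87812414 with 15 and Rab9 at chrX:166479868-166480117 with 7.
Rab8b: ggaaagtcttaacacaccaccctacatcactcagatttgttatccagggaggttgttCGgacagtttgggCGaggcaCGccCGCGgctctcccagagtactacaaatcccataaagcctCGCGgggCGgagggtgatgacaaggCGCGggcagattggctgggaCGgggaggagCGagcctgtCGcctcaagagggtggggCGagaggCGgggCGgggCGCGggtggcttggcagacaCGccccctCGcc
Rab25: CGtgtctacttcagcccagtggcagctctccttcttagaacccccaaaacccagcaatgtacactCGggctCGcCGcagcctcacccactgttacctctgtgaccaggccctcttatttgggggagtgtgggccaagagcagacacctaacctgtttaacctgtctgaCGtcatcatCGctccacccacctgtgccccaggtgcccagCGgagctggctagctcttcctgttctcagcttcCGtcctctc
Rab43: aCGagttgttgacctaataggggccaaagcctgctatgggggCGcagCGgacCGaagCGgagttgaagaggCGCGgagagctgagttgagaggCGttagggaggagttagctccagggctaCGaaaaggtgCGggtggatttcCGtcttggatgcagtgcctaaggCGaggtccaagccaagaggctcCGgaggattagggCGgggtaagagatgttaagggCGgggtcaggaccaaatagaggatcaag
Rab9: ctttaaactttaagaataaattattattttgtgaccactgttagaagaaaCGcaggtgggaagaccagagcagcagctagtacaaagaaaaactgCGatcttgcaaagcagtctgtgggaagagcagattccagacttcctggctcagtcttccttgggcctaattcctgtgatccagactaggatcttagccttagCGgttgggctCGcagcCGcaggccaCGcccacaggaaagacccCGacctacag

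FoxO factors are held out of the nucleus by Akt, so the windows were searched on both strands for their core motif GTAAACA. It stood in 2 of the 54 windows, 3.7%, against 3.65% of all windows, and these belonged to Rab39b and Rab43. In Rab43, which has 4 windows, it lies before an inner start, inside the gene's own span, and is shown in capitals as its reverse complement at chr6:87809876-87809905.
Rab43 inner window: gggcagtattccTGTTTACctgtgaagata
The E-box CACGTG, bound by TFEB and related regulators of lysosome genes, stood in 5 windows, 9.26% against 7.15% of all, those of Rab20, Rab21, Rab23, Rab24 and Rab27a. A match is a run of letters and shows no binding.

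Values are MAS5 signals, arbitrary brightness units, and differences are knockout minus wild type on the log2(signal + 21.7) scale, which understates the change of dim genes. Probe sets with a mean log2 value of at least 6.868 were tested, 78 of the family's 120, and these covered 38 of the 52 genes. A gene with several tested probe sets is given by its brightest one unless stated. The 14 genes without a tested probe set were Rab3b, Rab3c, Rab9b, Rab15, Rab19, Rab25, Rab26, Rab27a, Rab32, Rab33a, Rab37, Rab39, Rab39b and Rab44. By their design type, 12 of the 120 probe sets, 10 of them tested, can also bind related transcripts, and the brightest ones of Rab14, Rab3a, Rab38 and Rab27b are among these. No detection calls were used, so a dim probe set shows no more than a low signal.

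Wild type 1 and knockout 1 form a set unlike the remaining 4 arrays. Their 18S ribosomal RNA controls had median signals of 82330 in the wild type and 57275 in the knockout, against 152.7 to 446.7 elsewhere, and their poly-A controls 57 and 54.2, against 456.9 to 825.8. The median signal of the whole array was 167.2 in wild type 1 and 134.3 in knockout 1, against 88.4 to 91.2 elsewhere. The main fit takes the deposited values with no further scaling between arrays. A term for array set does not remove a difference between wild type 1 and knockout 1 themselves. The labels name no reason, and the 2 kinds of array are called array sets here. Akt2 was lower in the knockout as its label says: its brightest probe set read 2363, 2561 and 2505 in wild type 1, 2 and 3 and 477.8, 394.5 and 255.4 in knockout 1, 2 and 3, a difference of -2.69 (SE 0.25). Its limma adjusted p was 0.1804, and none of the 22519 tested probe sets passed 0.05, so even the disrupted gene stays outside the threshold of this design.

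Differences between the genotypes were small in the Rab family, and about as small over all genes. None of its 78 tested probe sets passed a limma adjusted p of 0.05, as for all probe sets (0% called), and the lowest adjusted p was 0.9999. At an unadjusted p under 0.05, 1 was lower and 0 higher in the knockout, against 1.13% of all tested probe sets lower and 0.879% higher, 2.01% in either direction. Since Akt2 did not pass either, this count says little. Of the 38 genes, 19 lay above 0 and 19 below. The median difference was -0.004, against 0.01 over the 11075 tested genes, and 31 genes, 81.58%, lay within 0.25 of 0, against 75.65% of all genes. In the replicate 1 pair 23 genes lay within 0.25 of 0, and in replicates 2 and 3 it was 30. The shares of all genes for these 2 counts are not given here, so they show nothing particular to the family. Differences ranged from -0.60 for Rab17 to 0.36 for Rab9, and Rab17 alone exceeded 1.5-fold, as did 3.82% of all genes. Rab17 differed by -0.93 between knockout 1 and wild type 1. Over replicates 2 and 3 its difference was -0.43, under 1.5-fold. With array set as a term it stayed at -0.60 (SE 0.17). Leaving out wild type 1 gave -0.22, also under 1.5-fold, but makes the array sets uneven between the genotypes. Rab17 read 0.88 higher on the log2 scale in the replicate 1 arrays, so that value mixes array set and genotype. The median size of a difference was 0.13 in the family and 0.13 over all genes.

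Within the array sets the members had no common sign. The median difference was 0.08 between the replicate 1 arrays and 0.005 over the other 4, where all genes gave 0.01 and 0.003. The sign was opposite in these comparisons for 18 of the 38 genes, and the share of all genes is not given here. Rab38, which serves melanosomes and lysosome-related organelles, differed most: it read 75.7, 190.1 and 139.5 in wild type 1, 2 and 3 and 194, 66.8 and 74.1 in knockout 1, 2 and 3. It was thus higher in the knockout in the replicate 1 pair, by 1.15, and lower in the others, at -1.005 on the log2 scale.

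**Figure D1:**
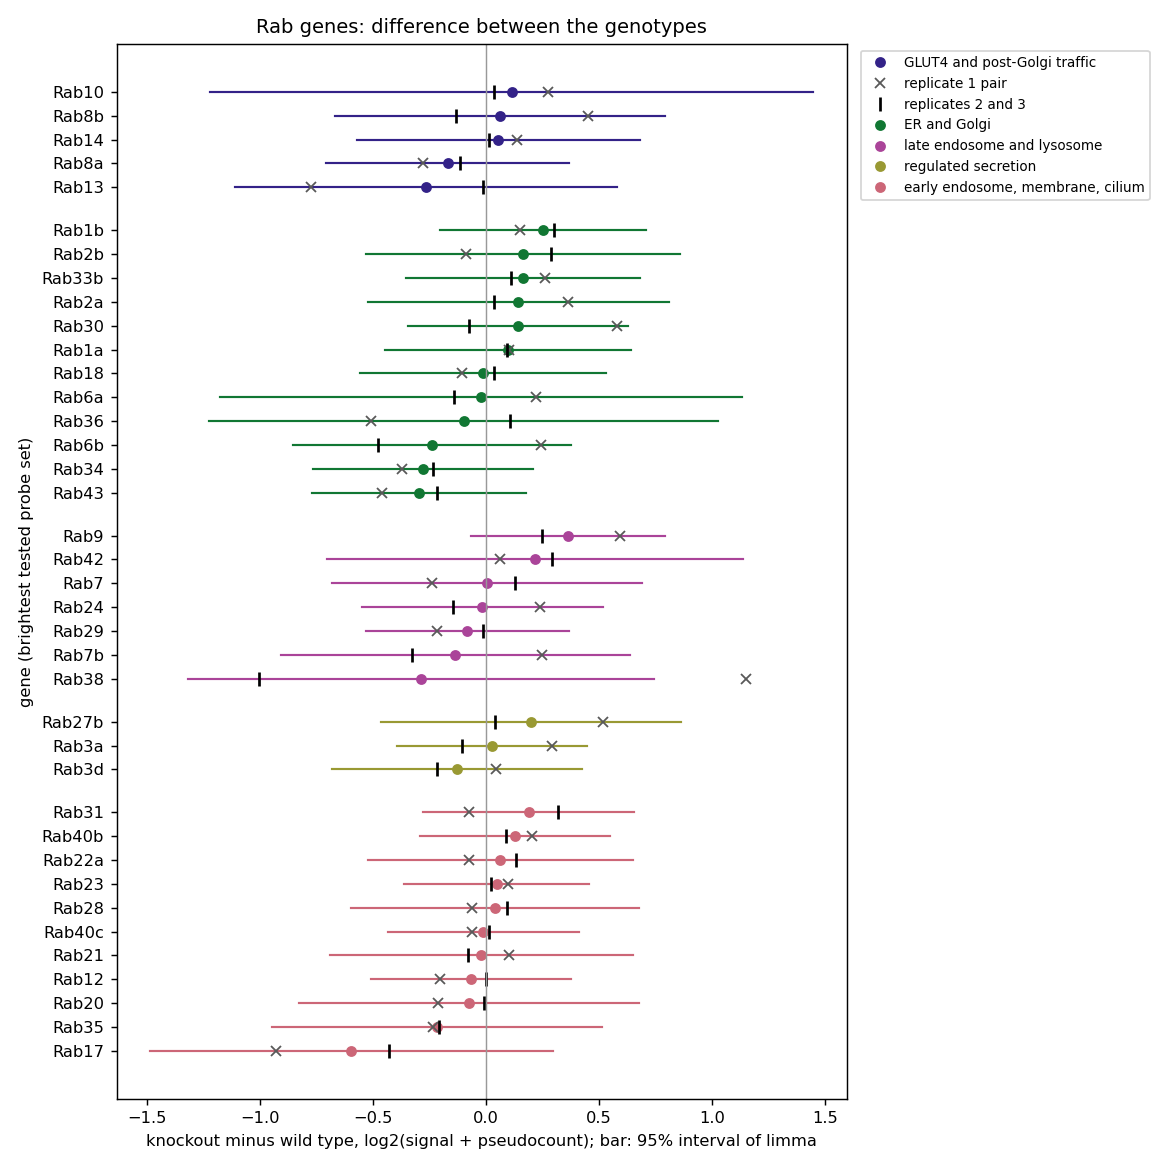
Knockout minus wild type difference of the 38 tested Rab genes, on the log2 scale, grouped by role; dots are estimates over all arrays, bars the 95% intervals of limma, crosses the replicate 1 pair and ticks replicates 2 and 3. All bars cross 0, the estimates run from -0.60 (Rab17) to 0.36 (Rab9), and the cross and tick of Rab38 lie at 1.15 and -1.005.

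The Rabs of GLUT4 traffic and post-Golgi transport, Rab8a, Rab8b, Rab10, Rab13 and Rab14, were all tested, and none passed the threshold. Their median difference was 0.05, with 3 above 0 and 2 below. Rab10, which in fat cells is needed for insulin to bring GLUT4 to the surface, read 2521, 7602 and 7768 in wild type 1, 2 and 3 and 3048, 7584 and 8174 in knockout 1, 2 and 3. Both replicate 1 arrays were far below the other 4, and within each array set the genotypes were close. The difference was 0.11 (SE 0.56), with a 95% interval of -1.22 to 1.45. With array set as a term in the fit the interval narrowed to -0.18 to 0.41. The 2 dimmer probe sets of Rab10 gave differences of 0.10 and -0.006.

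Rab14, which acts between trans-Golgi and endosomes, read 5878, 3991 and 4210 in the wild type and 6454, 4231 and 4050 in the knockout. The groups overlapped and the difference was 0.05 (SE 0.26), with an interval of -0.22 to 0.33 once array set was a term. Its other 5 tested probe sets gave -0.17 to 0.22.

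Rab8a, a Rab of post-Golgi exocytosis that also serves GLUT4 in muscle cells, read 1045, 1418 and 1246 in the wild type and 857, 1284 and 1168 in the knockout. Each knockout array was below the wild type array of its number, but the groups overlapped, and the difference was -0.17 (SE 0.23; -0.48 to 0.14 with array set as a term). It was -0.002 without knockout 1, -0.07 without wild type 2 and -0.01 by the mean of its probe sets. Its dimmer probe set went the other way, 0.15. Rab8b, the close relative of Rab8a, read 581.5, 1186 and 1107 against 803, 998 and 1092, a difference of 0.06 (SE 0.31; -0.33 to 0.46 with array set as a term). The sign rests on the replicate 1 arrays: the difference was 0.45 between these and -0.13 in replicates 2 and 3 alone. Without wild type 1 it was -0.26. Leaving out 1 array, here and for Rab8a, makes the array sets uneven between the genotypes.

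Rab13, a Rab of tight junctions and of GLUT4 in muscle cells, read 387.6, 145.5 and 193 in the wild type and 217.8, 143.7 and 191.3 in the knockout. Wild type 1 was the highest array and the other pairs nearly met. The difference was -0.27 (SE 0.36), with an interval of -0.81 to 0.27 once array set was a term. It was 0.10 without wild type 1, which leaves the array sets uneven between the genotypes. The intervals of these 5 genes do not show that they were equal between genotypes, only how large a difference these arrays leave room for.

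**Figure D2:**
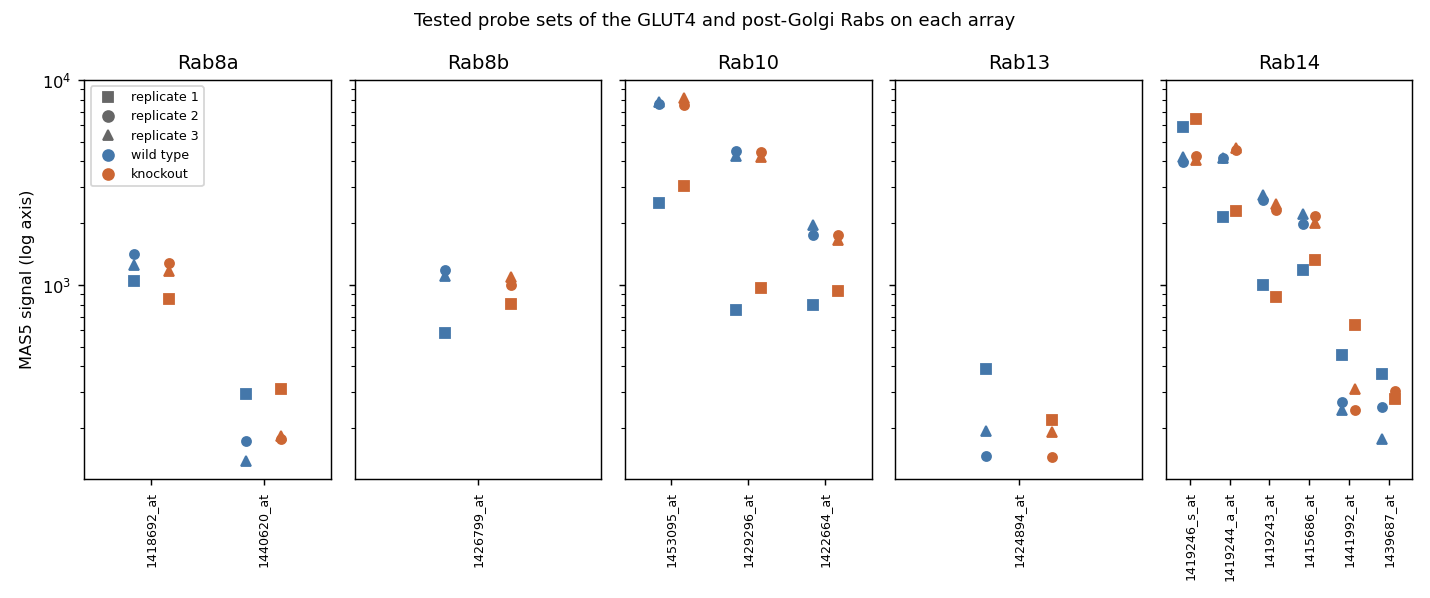
MAS5 signal (log axis) on each array for every tested probe set of Rab8a, Rab8b, Rab10, Rab13 and Rab14, wild type in blue and knockout in orange, the symbol giving the replicate number. Wild type and knockout overlap in all panels, and for Rab10 the replicate 1 squares lie below the other arrays (2521 and 3048 against 7584 to 8174 for the brightest probe set).

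The 2 GTPase-activating proteins through which Akt reaches these Rabs did not pass the threshold either. Tbc1d4 read 1848, 1204 and 1363 in the wild type and 1847, 1145 and 1214 in the knockout, a difference of -0.08 (SE 0.27; 95% interval -0.71 to 0.55), and 0.03 by its other probe set. Tbc1d1 read 404.8, 150 and 184.1 against 325.3, 165.3 and 111.8, a difference of -0.27 (SE 0.46; -1.37 to 0.84), and 0.16 by its other tested probe set. These are transcript levels, and phosphorylation was not measured.

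The ER and Golgi Rabs had 12 of 14 genes tested, 6 above 0 and 6 below, with a median of 0.04. Rab43, which acts in traffic between endoplasmic reticulum and Golgi, was the only member with a probe set at an unadjusted p under 0.05. That probe set, the second brightest of the gene, read 150.5, 130 and 141.7 in wild type 1, 2 and 3 and 69.9, 83.2 and 90.8 in knockout 1, 2 and 3. All 3 knockout arrays lay below all 3 wild type arrays, with means of 81.3 ± 10.6 and 140.7 ± 10.3 (SD, n = 3 each). Its difference was -0.66 (SE 0.17), with a 95% interval of -1.08 to -0.25. By limma the unadjusted p was 0.007248 and the adjusted p 0.9999, and over the alternatives tried the adjusted p lay between 0.4892 and 1.

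The other Rab43 probe sets did not all go that way. The brightest read 406.5, 355.5 and 286.5 in the wild type and 289.3, 246.2 and 300.2 in the knockout, so that the groups overlapped, with a difference of -0.30 (SE 0.20). Another one, below the brightness limit, read 64.2, 51.9 and 45 against 143.1, 97 and 65.9, higher in every knockout array than in any wild type array. In a fit without the limit its difference was 0.67 with an unadjusted limma p of 0.06385. Which of these probe sets stands for the Rab43 transcript was not tested.

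Rab1b, which with Rab1a starts transport from endoplasmic reticulum to Golgi, read 3409, 3496 and 4194 in the wild type and 3788, 4514 and 4937 in the knockout. The knockout array was higher in each numbered pair, but the groups overlapped, and the difference was 0.25 (SE 0.19; 95% interval -0.21 to 0.71). Rab1a, the brightest-reading member, differed by 0.10, with signals of 11754 to 16511 in the wild type and 12596 to 17547 in the knockout. Rab34, linked to lysosome position and cilium formation, read 748.4, 562.1 and 543.1 against 572.6, 478.4 and 455.3, a difference of -0.28 (SE 0.20), while its other probe set gave 0.07. With array set as a term the unadjusted limma p of the first was 0.04768.

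Rab6b, the form of Rab6 best known from neurons, read 376.4, 431 and 325.7 in the wild type and 448.8, 253.4 and 272.3 in the knockout, a difference of -0.24 (SE 0.26). A dimmer probe set, one of those that may bind related transcripts, read 268.5, 231.8 and 163.5 against 160.8, 147.5 and 155.8. These groups did not overlap, by a narrow margin, and the difference was -0.44 (SE 0.22) at an unadjusted limma p of 0.08342. Its other 2 probe sets gave 0.40 and -0.45. A probe set of Rab2b, a Golgi Rab outside the naming rule and picked here after its values were seen, likewise separated the groups. It read 287.4, 190.4 and 169.5 against 138, 137.1 and 147.4, a difference of -0.52 (SE 0.23), whereas its brightest probe set gave 0.16. The other ER and Golgi genes had overlapping groups: Rab2a, of Golgi traffic, differed by 0.14, Rab18, of lipid droplets and endoplasmic reticulum, by -0.01, and Rab6a by -0.02. Rab30 differed by 0.14, Rab33b, which binds the autophagy protein Atg16l1, by 0.16, and Rab36 by -0.10.

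Over the tested probe sets of the family, the groups did not overlap for 1 probe set that was higher and 3 that were lower in the knockout, those of Rab43, Rab2b and Rab6b, against 3.64% and 3.66% of all tested probe sets. By the brightest probe set of each gene, 1 gene was higher, Rab9, and 0 were lower, against 3.9% and 3.56% of all genes. Of the 23 genes with at least 2 tested probe sets, 15 had probe sets on both sides of 0, and the share of all genes is not given here.

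**Figure D3:**
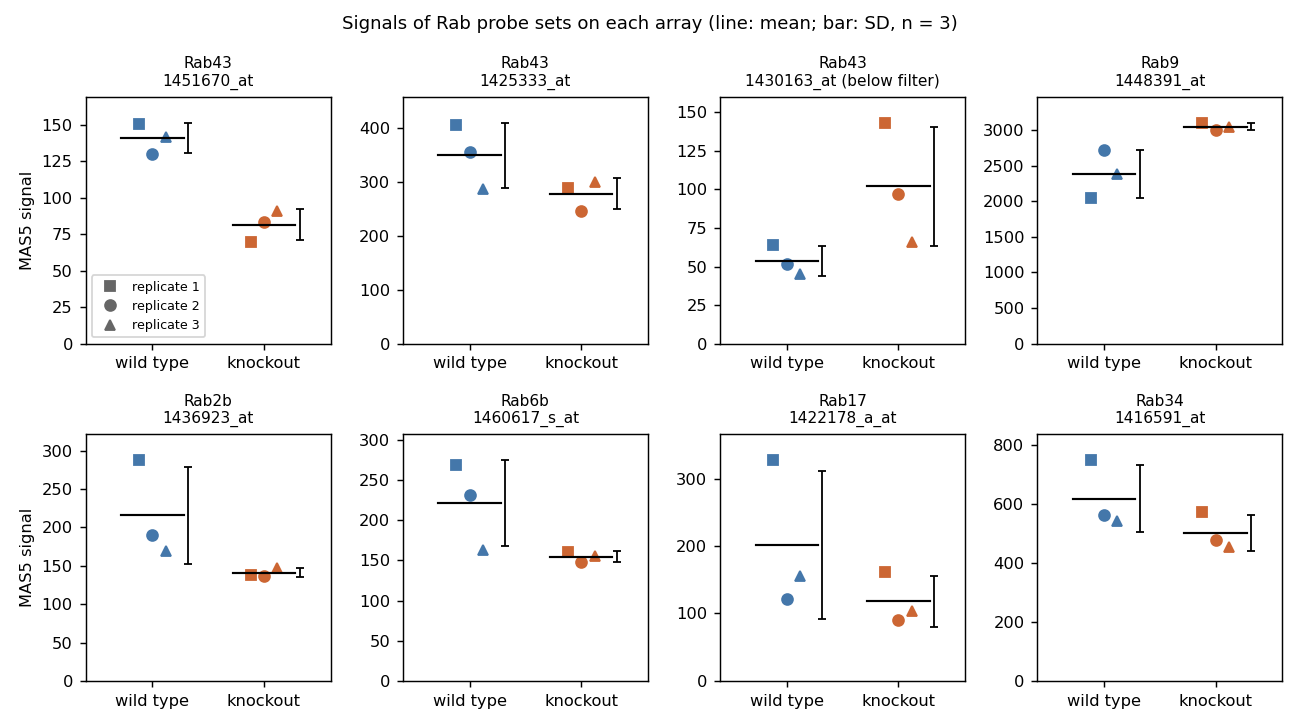
MAS5 signal on each array for probe sets of Rab43, Rab9, Rab2b, Rab6b, Rab17 and Rab34, with the mean as a line and the SD as a bar (n = 3 per genotype). The Rab43 probe set in the first panel lies at 130 to 150.5 in the wild type and 69.9 to 90.8 in the knockout, the dim one in the third panel is higher in the knockout, and Rab9 lies at 2999 to 3097 in the knockout against 2046 to 2713.

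The late endosome and lysosome Rabs had 7 of 12 genes tested, 3 above 0 and 4 below, with a median of -0.02. Rab9, which returns mannose 6-phosphate receptors from late endosomes to the Golgi, had the highest difference of the family. It read 2046, 2713 and 2386 in the wild type and 3097, 2999 and 3042 in the knockout. Every knockout array was above every wild type array, with means of 3046 ± 48.9 and 2382 ± 334 (SD, n = 3 each). The difference was 0.36 (SE 0.18), with a 95% interval of -0.07 to 0.79 and, by limma, an unadjusted p of 0.08621. It was 0.59 between the replicate 1 arrays and 0.25 over the other 4, and with array set as a term the unadjusted limma p was 0.03657. Rab9 is read by 1 tested probe set, so no other one checks it.

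Rab7, the main late endosome Rab, differed by 0.005 and 0.03 by its 2 probe sets. Rab7b, which acts from lysosomes towards the Golgi, gave -0.14 and -0.29. Rab42 read 175.9, 78.3 and 84.3 against 184.6, 72.9 and 146.4 (0.22, SE 0.39). Rab29, a partner of the kinase Lrrk2, read 538.5, 411.6 and 464.7 against 460.2, 390.3 and 478.6 (-0.08, SE 0.19). Rab38 differed by -0.29 (SE 0.43) over all arrays, with the opposite signs given above, and Rab24, linked to autophagy, by -0.02. Apart from Rab9 the groups overlapped for each gene of this role.

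The Rabs of early endosomes, plasma membrane and cilium had 11 of 13 genes tested, 5 above 0 and 6 below, with a median of -0.01. Rab17, known from transport across epithelial cells, was the lowest of the family. It read 327, 121.3 and 156.1 in the wild type and 161.5, 90 and 103.6 in the knockout. The knockout array was lower in each numbered pair, but knockout 1 was above wild type 2 and 3, so the groups overlapped. The difference was -0.60 (SE 0.37), with an unadjusted limma p of 0.1562, and with array set as a term the unadjusted p was 0.01223.

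Rab31, which acts between trans-Golgi and endosomes, read 564.8, 611.9 and 485.9 in the wild type and 534.4, 718.5 and 655.3 in the knockout (0.19, SE 0.20). Its second probe set gave -0.05. Rab35, a Rab of fast recycling at the plasma membrane, read 1694, 1076 and 985.8 against 1437, 999.6 and 787.8 (-0.22, SE 0.31), lower in the knockout in each numbered pair. Rab40b, a Rab with a SOCS box that works with ubiquitin ligases, read 208.3, 236.4 and 268.9 against 243.3, 269.5 and 268.9 (0.13, SE 0.18). The rest, Rab12, Rab20, Rab21, Rab22a, Rab23, Rab28 and Rab40c, lay between -0.08 and 0.06, and their groups overlapped.

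Few Rabs of regulated secretion were bright enough, 3 of 8 genes. Rab3a, the synaptic vesicle Rab that also serves granules of endocrine cells, read 2508, 2648 and 2772 in the wild type and 3077, 2613 and 2422 in the knockout (0.03, SE 0.18), and 0.26 by its dimmer probe set. Rab3d, a Rab of exocrine granules, read 465.4, 702.8 and 716.9 against 481, 616.9 and 599.2 (-0.13, SE 0.23). Rab27b, which docks secretory granules and exosome-bearing endosomes, read 110.8, 107.7 and 83.7 against 167.9, 75.3 and 126.9 (0.20, SE 0.28). The groups overlapped for each of the 3.

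Among the 42 untested probe sets, the groups did not overlap for 7 that were higher in the knockout and 1 that was lower. Over all untested probe sets the shares were 3.58% and 4.29%. The share of higher ones was thus larger in the family, and that of lower ones smaller. These signals are dim, several probe sets read the same gene, and the excess was not tested. The higher ones were read for Rab15, Rab27b, Rab37 (both of its probe sets), Rab3c, Rab7b and Rab43, and the lower one for Rab39b. They are named after their values were seen. Rab15, a neuronal endosome Rab, read 56.1, 54.1 and 73.6 in the wild type and 177.7, 102.1 and 120.1 in the knockout. In the fit without the brightness limit its difference was 0.88, with an unadjusted limma p of 0.01613 and an adjusted p of 0.9999. Rab37, a Rab of secretory granules found in mast cells among others, read 10.6, 49.7 and 45.8 against 226.7, 58 and 58.7 by one probe set, and 37.2, 42.6 and 42.6 against 47.8, 73.9 and 67.5 by the other. In the first of these, knockout 1 alone accounts for most of the gap. The untested probe set of Rab27b in this count read 9.5, 76.3 and 55.1 against 173.2, 101.1 and 79.5. Other dim probe sets of these genes had overlapping groups and lay on both sides of 0 in the fit without the limit: Rab27b gave 0.30 and -0.35, and Rab3c -0.81, -0.42, -0.09 and 0.23. The 4 probe sets of Rab27a, another Rab of granule docking, ran from -0.77 to 0.70.

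The marker lists describe the tissue, and their sums do not show which cells carry such dim signals. All 9 cardiomyocyte markers were tested, and their summed signal was 425023 to 1329206 in the wild type and 516177 to 804709 in the knockout, so the tissue reads as heart muscle. Over 8 mast cell markers it was 544.8 to 941.8 in the wild type and 329.9 to 421 in the knockout, the only one of 14 lists whose groups did not overlap, with 2 markers tested and both below 0. Over 9 neuron and Schwann cell markers the sums were 1415 to 2188 and 1198 to 1593, with 4 tested, and over 4 atrial markers 15006 to 16687 and 16345 to 19949. By single markers, 4 of 4 atrial markers lay above 0, with a median of 0.54. So did 6 of 8 fibroblast and 4 of 6 smooth muscle and pericyte markers, with medians of 0.07 and 0.05. In contrast 8 of 9 cardiomyocyte, 8 of 9 endothelial and 9 of 10 macrophage markers lay below 0, with medians of -0.11, -0.17 and -0.18. The neutrophil, erythroid and platelet, neuron and Schwann cell, and skeletal muscle lists had more tested markers below 0 than above. The share of all genes below 0 is not given here. No marker passed the adjusted threshold, no lymphocyte, adipocyte or epithelial marker was bright enough to test, and the part of cell composition in any Rab difference was not tested.

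Rab probe sets, like probe sets at large, differed more between the array sets than between the genotypes. In a limma fit with both terms, 18 of the 78 tested Rab probe sets were higher in the replicate 1 arrays at an adjusted p under 0.05. A further 19 of the 78 were lower. Over all tested probe sets the shares were 20% and 13.2%. Both shares were larger in the family, above all that of lower probe sets. Several probe sets read the same gene, and this excess was not tested. The median size of the array set difference was 0.49 in the family and 0.42 over all tested probe sets, and that of the genotype difference 0.142 and 0.145. The array set difference was the larger for 63 of 78 Rab probe sets, 80.8%, against 77.7% of all. Rab10 was the clearest, 1.48 lower in the replicate 1 arrays by its brightest probe set (log2 -1.48, adjusted p 0.006239). Its second probe set read 750 and 967 in the replicate 1 arrays and 4185 to 4520 in the others, a difference of -2.33 at the same adjusted p.

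Probe sets of 1 gene could disagree here. For Rab2a and Rab14, 2 of the 23 genes with at least 2 tested probe sets, some passed the adjusted threshold in each direction. The share of all genes is not given here. The brightest probe set of Rab14 was higher in the replicate 1 arrays, 5878 and 6454 against 3991 to 4231, by 0.58. The third brightest was lower, 993.2 and 869.4 against 2311 to 2740, by -1.42 on the log2 scale. For Rab2a, which acts between endoplasmic reticulum and Golgi, a dim probe set was higher there by 1.74 while the brightest was lower at -0.62. Rab6a, the Golgi Rab of retrograde transport, read 2354 and 2744 in the replicate 1 arrays and 5345 to 6525 in the others (-1.25). What makes the array sets differ was not tested.

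**Figure D4:**
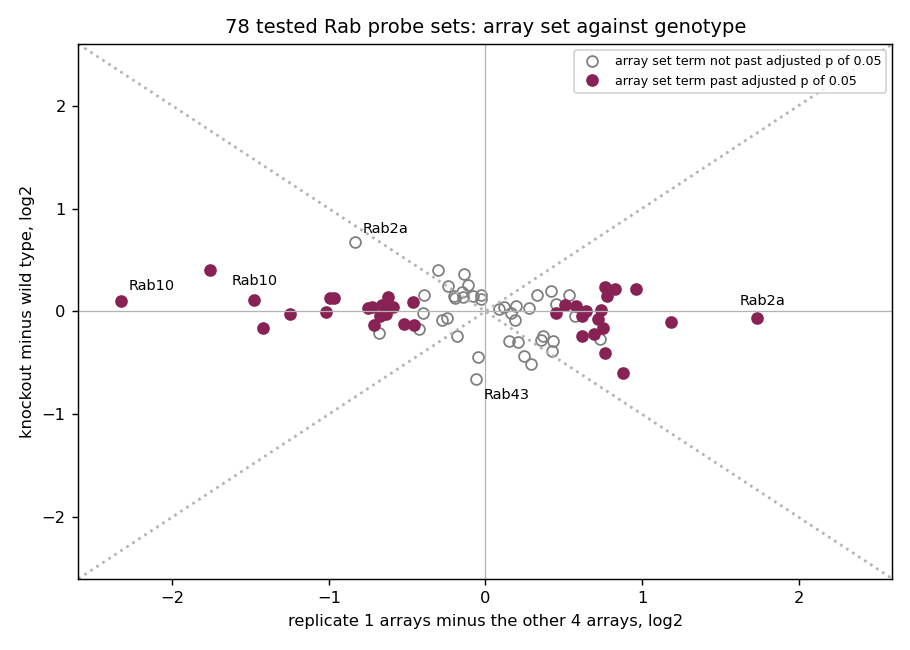
The array set difference (replicate 1 arrays minus the other 4, log2, horizontal) against the genotype difference (knockout minus wild type, log2, vertical) for the 78 tested Rab probe sets; filled points pass the adjusted p for the array set, and dotted lines mark equal sizes. Most points, 63, spread further along the horizontal axis, out to -2.33 for Rab10 and 1.74 for Rab2a.

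With array set as a term, 2 Rab probe sets were higher and 6 lower at an unadjusted limma p under 0.05, which is 10.26% of the family against 7.77% of all tested probe sets (3.53% higher, 4.25% lower). None passed the adjusted threshold, and the lowest adjusted p in the family was 0.6131. The higher ones were those of Rab9 and a dim probe set of Rab2a. The lower ones were those of Rab43, Rab17, Rab2b, Rab6b, Rab34 and the second of Rab40c. With the replicate number as a block instead, 4 were lower and 0 higher, 5.128% against 5.63% of all, and in replicates 2 and 3 alone 6 were lower, 7.692% against 9.31%.

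The machinery that acts on Rabs was described from lists of genes by function, by brightest tested probe set. None of their genes passed a limma adjusted p of 0.05. Each list had at most 1 gene in each direction whose groups did not overlap. Over all tested genes, the groups did not overlap for 3.9% that were higher and 3.56% that were lower in the knockout. The core of the cycle, the GDI, escort and prenylation proteins, had 7 tested genes, 1 above 0 and 6 below, with a median of -0.09. Chm, the escort protein Rep1 that presents new Rabs for prenylation, read 790.8, 843.2 and 788 in the wild type and 627.3, 744 and 729.1 in the knockout. These groups did not overlap, and the difference was -0.20 (SE 0.17). Its relative Chml differed by 0.21, Rabac1, a Rab acceptor of the Golgi, by -0.24, and Rabif by -0.14, each with overlapping groups.

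Of 26 tested exchange factors 14 lay above 0 and 12 below, with a median of 0.01. Mon1b, a subunit of the exchange factor for Rab7, read 255.7, 176 and 164.6 against 113.5, 141.7 and 132.2. The knockout arrays were all lower, and the difference was -0.53 (SE 0.22) at an unadjusted limma p of 0.04578, which was 0.05222 with the replicate block. Dennd1b, whose DENN domain acts on Rab35, read 655.5, 785.6 and 791.8 against 847.3, 1044 and 833.3, all higher in the knockout (0.28, SE 0.19). Dennd4b (0.37) and Rin3 (0.29) had overlapping groups, and the unadjusted p of Dennd4b was 0.1357, or 0.03977 with the replicate block.

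Of 31 tested GTPase-activating proteins 16 lay above 0 and 15 below, with a median of 0.01. Tbc1d13, a TBC protein that acts on Rab35, read 296.5, 189.1 and 163.7 against 71.3, 147.1 and 149.3, all lower in the knockout, by a narrow margin outside the replicate 1 pair (-0.74, SE 0.33). Rabgap1l (0.44), Tbc1d10c (-0.21) and Tbc1d14 (-0.22) had overlapping groups. Of 27 tested effectors 19 lay above 0 and 8 below, with a median of 0.03. Mical1 (-0.59) and Rabepk (-0.32) lay below 0, and Rabep2 (0.30) and Ocrl (0.32) lay above 0, all 4 with overlapping groups. The groups did not overlap for 1 effector, Osbpl1a, which binds Rab7 and lies outside the naming rule: it read 2995, 2955 and 3212 in the wild type and 3588, 3599 and 3252 in the knockout (0.19, SE 0.16).

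The recycling Rabs left out of the family contain 1 gene that stands apart from the members. Rab4a read 357.9, 155.5 and 168 in the wild type and 614.4, 605.6 and 656.3 in the knockout, a difference of 1.47, and 1.55 by its second probe set, against a highest value of 0.36 among the 38 member genes. The other 6 recycling Rabs lay between -0.06 and 0.18. Rab4a did not pass the limma adjusted threshold either.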

How the data were processed

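The deposited table holds intensities on a linear scale for 45101 probe sets and 6 arrays, which the authors computed with MAS5 per the submitters' processing notes. Its version and settings were not found in the labels. Probe sets take gene symbols from the platform annotation; 34945 name 1 gene, 932 several, and 9160 are unnamed here. The number of arrays limits the precision.

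The 64 control probe sets were left out. Signals were put on log2(signal + 21.7), the 20th percentile of all values, and limma 3.58.1 (R 4.3.3) was fitted without a block to the 22519 probe sets whose mean was no lower than the median, 6.868. P-values were adjusted by Benjamini-Hochberg over all of them at 0.05. The fit was also run on simulated data, whose outcome is not given here and on which no result above rests. Promoter windows come from RefSeq. Members, lists and tests were chosen with earlier results of these data known. Genes named are Rab8a, Rab10, Rab13 and Rab14, those with a tested probe set at unadjusted p under 0.05 or whose brightest probe set has groups that do not overlap, and the 4 with the lowest p in each role; around the family, Akt2, Tbc1d1, Tbc1d4, Rab4a and the 4 lowest p of each list.

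Samples share replicate numbers. Deviations from the genotype means of same-numbered arrays correlated at 0.61, 0.45 and 0.39, so a replicate block was fitted as an alternative; numbers 2 and 3 of opposite genotypes gave 0.36 and 0.44. Alternatives were other pseudocounts, filters, scalings and variances, blocks for replicate number or array set, the mean of a gene's probe sets, and leaving out each array.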

Additional observations from a re-analysis of the deposited data

How the results depend on the processing

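No Rab probe set passed the adjusted threshold under any of the 17 alternatives, and over all probe sets 1 passed with the array set block. The median difference of the Rab genes, and that of the genes around them (0.01), moved by less than their spread over arrays. Of 377 values of the 20 named genes and of 3 dimmer probe sets under the alternatives, 359 kept their direction and 18 reversed. The count of Rab probe sets at an unadjusted p under 0.05, 1 as reported, was 2 with no filter or with median centring, 0 with a stricter filter or a trended robust variance, 4 with the replicate block, 8 with the array set block and 6 in replicates 2 and 3 alone; leaving out 1 array gave 1 to 4 (4 without wild type 3, 2 without wild type 1 or knockout 1). The count of Rab genes whose groups do not overlap, 1 as reported, was 4 with no filter, 2 with quantile normalization, median centring or the mean of probe sets, and 16 in replicates 2 and 3 alone, where fewer arrays make separation easier; leaving out 1 array gave 1 to 9 (9 without knockout 1, 7 without wild type 1). The 37 Rab probe sets that differ by array set became 11 with no filter, a fit that also takes in the dim ones. By the mean of a gene's probe sets the count was 15, but of genes rather than probe sets. Leaving out 1 array gave 15 to 41 (15 without wild type 1, 41 without knockout 1). Shares of all genes or probe sets under the alternatives are not given here, apart from those above for unadjusted p with the blocks and in replicates 2 and 3. These counts therefore show nothing particular to the family. The replicate block left no gene past the adjusted threshold; of the lists around the family it moved Mon1b above an unadjusted p of 0.05 (0.05222) and Dennd4b (0.03977) and Madd (0.04442) below it.

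Reversed values in replicates 2 and 3 alone were -0.13 for Rab8b and -0.11 for Rab3a. With 1 array left out, differences crossed 0 for 9 genes: -0.42 to 0.57 for Rab10, -0.54 to 0.10 for Rab13, -0.16 to 0.23 for Rab14, -0.26 to 0.25 for Rab8b, -0.45 to 0.018 for Rab35, -0.17 to 0.013 for Rab29, -0.021 to 0.54 for Rab42, -0.021 to 0.46 for Rab27b, and -0.069 to 0.10 for Rab3a. With 1 array left out the array sets are uneven between the genotypes, so these values mix array set and genotype. What made them cross 0 was not tested. Without a change of sign, Rab8a ran from -0.29 to -0.002 and Rab17 from -0.86 to -0.22 over the alternatives. Signals near background limit the 14 untested genes.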
